A study of Rattus norvegicus with 12 samples.

Results

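Slice co-cultures of entorhinal cortex and hippocampus, the 2 brain regions joined by the entorhino-hippocampal pathway, were compared 7 days after that pathway had been cut. Of the series' 12 arrays, the 4 whose titles name day 7 were taken. Per the labels they hold 2 biological replicates, each hybridized on 2 arrays with the dyes exchanged, so n = 2 throughout, and the other 8 arrays hold days 1 and 3 in the same layout. Each array set RNA of axotomized cultures, cut after 15 days in vitro and grown on for 7 days, against RNA of non-axotomized control cultures of that time point. The animals were wild type, the labels name no transgene or drug, and all cultures were kept in medium with horse serum. The labels give the organism as Rattus norvegicus, the array as an Agilent whole-genome rat design, and the animals of the treatment step as mice, a conflict that is not settled here. The labels do not say what a replicate was made of (cultures, animals or pooled material). A p-value thus measures only the spread between replicates. That spread is pooled over the 6 replicates of the 3 days and drawn by limma toward a value common to all genes.

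Every value is a log2 ratio of axotomized over non-axotomized RNA. No label states this direction; it is the likely one, since the titles name the lesioned side first and the channels follow that order, and every sign turns if it is wrong. Base 2 is the convention of limma, which the submitters name, and is not stated either. The table gives ratios and no signal levels, so presence of a cell type's markers could not be checked, and fewer cells of a type cannot be told apart from less RNA per cell. Where 2 values are given for a replicate, the first is the array with axotomized RNA in Cy5 and the second the array with it in Cy3.

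The entorhino-hippocampal or perforant pathway carries the main cortical input of the dentate gyrus and ends on the outer dendrites of its granule cells. In the intact brain its loss starts a known sequence in the target layer: microglia gather and take up debris, astrocytes enlarge, myelin of the cut fibres is cleared, and surviving fibres sprout into the empty territory. Cut axons of the mature central nervous system regrow poorly, which is ascribed in part to inhibitors on myelin and in the scar. A slice culture keeps the layers and the local glia but has no blood flow and no recruitment of blood cells.

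At day 7 no gene passed the threshold. In limma's test of 14871 genes against 0, 0 genes (0%) had an adjusted p under 0.05 and the smallest adjusted p was 0.238. An unadjusted p under 0.05 was reached by 719 genes above 0 (4.83%) and 674 below 0 (4.53%), and 1 sign on all 4 arrays was kept by 1374 genes above 0 (9.24%) and 1216 below 0 (8.18%). Every group of genes below is therefore described by its counts and its median, beside these shares and the median over all genes of 0.0033. The gene lists were chosen with earlier results of these data known, so setting a list beside these shares is no test of it. The count of 0 became 18 without day 7 replicate 2, of which 3 were above and 15 below 0, and 15 with quantile normalization.

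Day 7 had the smallest ratios of the 3 days. A mean ratio over 0.5 in size was seen in 38 genes, against 123 at day 1 and 134 at day 3, and the SD over genes was 0.101, against 0.117 and 0.121. Across the 14871 genes, which are not independent of each other, Pearson's r between the replicates of day 7 was 0.29, and 59.1% of genes had 1 sign in both. Between the 2 arrays of a replicate r was 0.09 in replicate 1 and 0.23 in replicate 2, and between arrays of the same dye orientation it was 0.44 and 0.35. Arrays of different replicates with the same orientation were thus more alike than the exchanged arrays of 1 replicate, and the mean over both orientations is used for every gene.

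Ranked by p among genes whose 4 arrays shared a sign, the first 15 in each direction were named, 30 in all. Those above 0 include 5 genes of the myelin list. Those below 0 include Tf, which is of the same list, and genes of phagocytes and lysosomes. Values of Idi1 were 0.48 and 0.54 in replicate 1, and 0.35 and 0.43 in replicate 2. Its mean was 0.45 ± 0.084 (SD), and it encodes the isomerase that makes the activated isoprene unit of cholesterol synthesis. For Tmeff2 the arrays gave 0.58 and 0.40 in replicate 1 and 0.45 and 0.29 in replicate 2. Tmeff2 is a membrane protein gene with follistatin-like domains, and its mean was 0.43 ± 0.087 (SD). The 4 values of Gfra2 were 0.33 and 0.27 in replicate 1, then 0.26 and 0.36 in replicate 2. The mean of Gfra2, the receptor gene for the growth factor neurturin, was 0.31 ± 0.0085 (SD), while Nrtn, the neurturin gene itself, had -0.31 ± 0.089 (SD) and was lower with the axotomized RNA in Cy5 than in Cy3 in both replicates. Lxn, the latexin gene, was the steadiest of the 30 across arrays, at 0.30 to 0.32, but its 2 spots stood at 0.03 and 0.58.

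Srgn stood at -0.59 and -0.35 in replicate 1 and at -0.46 and -0.38 in replicate 2. Srgn encodes serglycin, a proteoglycan of the granules of blood-derived cells, and had the smallest p of the genes below 0; its mean was -0.44 ± 0.036 (SD). Spp1 had -1.06 and -1.16 on the arrays of replicate 1 and -0.47 and -0.99 on those of replicate 2. All 4 arrays lay below 0, with replicate 1 lower than replicate 2, and the mean of Spp1, the gene of osteopontin, was -0.92 ± 0.27 (SD). Values of Unc119 were -0.43 and -0.20 in replicate 1, and -0.41 and -0.41 in replicate 2. Unc119, whose protein carries lipid-modified cargo to membranes, had a mean of -0.36 ± 0.068 (SD). The size of several of the 30 differed by dye orientation in both replicates, for example 0.72 and 0.24 in replicate 1 and 0.68 and 0.12 in replicate 2 for the ribosomal protein gene Rpl5, -0.59 and -0.02 in replicate 1 and -0.64 and -0.06 in replicate 2 for the lysosomal protease gene Ctsd and -0.08 and -0.38 in replicate 1 and -0.02 and -0.39 in replicate 2 for the mitochondrial tRNA synthetase gene Cars2. The others above 0, Mustn1, Akr7a3, Eif3e and Pbdc1, had means of 0.29 to 0.50, and the others below 0, among them Pygl, the liver glycogen phosphorylase gene, Mefv, the pyrin gene, and Tac3, the neurokinin B gene, had means of -0.37 to -0.23. The 2 spots of Mustn1 stood at 0.16 and 0.66 and those of Ugt1a2 at -0.49 and 0.02.

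**Figure D1:**
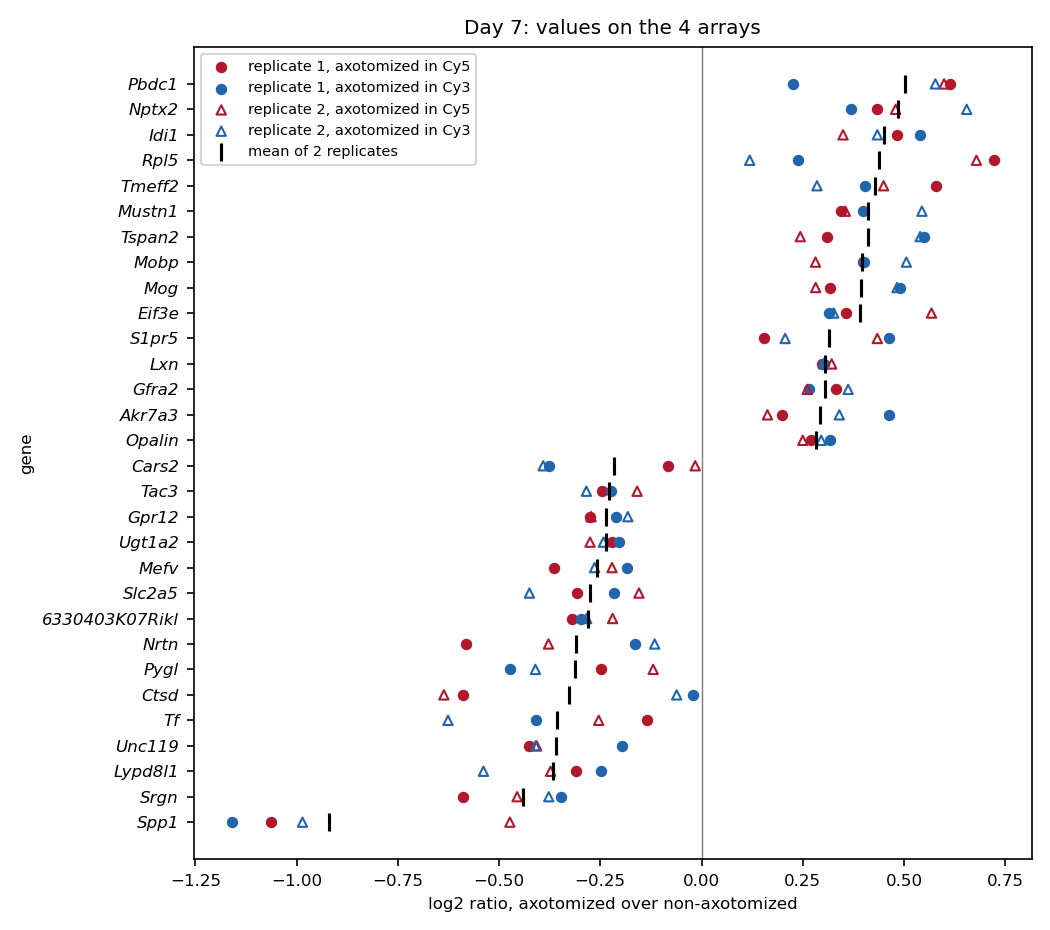
Values of the 30 named genes at day 7, whose 4 arrays share a sign, 15 above and 15 below 0. The horizontal axis is the log2 ratio of axotomized over non-axotomized RNA, rows are genes, symbols are single arrays and bars the mean of the 2 replicates; Lxn sits within 0.30 to 0.32, while Rpl5 and Ctsd split by dye.

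Genes of cholesterol synthesis lay above 0 together. All 16 measured genes of the 19 listed had a mean above 0, 11 kept that sign on all 4 arrays (68.8%, against 17.4% of all genes in either direction) and 9 had an unadjusted p under 0.05. Their median was 0.16, at 0.28 in replicate 1 and 0.11 in replicate 2, and none passed. For Sqle the arrays gave 0.55 and 0.28 in replicate 1 and 0.24 and 0.24 in replicate 2. Sqle, which encodes squalene epoxidase, had a mean of 0.33 ± 0.12 (SD). The 4 values of Msmo1 were 0.41 and 0.37 in replicate 1, then 0.21 and 0.36 in replicate 2. Msmo1 encodes the sterol oxidase that removes methyl groups from lanosterol's successors and had a mean of 0.34 ± 0.076 (SD). Behind them came Cyp51, the lanosterol demethylase gene, at 0.30 ± 0.14 (SD), Fdft1, the squalene synthase gene, at 0.24 ± 0.078 (SD), and Sc5d, a late desaturase gene, at 0.20 ± 0.13 (SD). The spots of Cyp51 stood at 0.58 and 0.02. Lowest of the 16 were Ebp at 0.03 and Mvk, the mevalonate kinase gene, at 0.01, and in Ebp the sign turned with the dyes in both replicates.

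Of 16 measured genes for sterol sensing, uptake and efflux, 10 lay above 0 and the median was 0.02. The protein of Insig1 holds the sterol sensor in the endoplasmic reticulum, and the gene is itself a target of the pathway's transcription factors. Insig1 had 0.21 and 0.17 in replicate 1 and 0.44 and 0.41 in replicate 2, with a mean of 0.31 ± 0.17 (SD). Of its 5 spots 1 stood at 0.03 and the others at 0.33 to 0.44. Srebf2, the main transcription factor gene of the pathway, stood at 0.02 ± 0.011 (SD), and Apoe, the carrier of cholesterol between brain cells, averaged 0.00 from values that turned with the dyes. Abcg1, an efflux pump gene, was at -0.11 ± 0.028 (SD), below 0 on all 4 arrays.

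Promoters were read because members of this list lay on 1 side together. For 13 of the 16 genes RefSeq's rat assembly GRCr8 gave the 250 bases before and 50 after the start. The letters CACCCCAC, the core of a sterol regulatory element, were found on either strand in 1 of 13 (7.69%, Ebp), against 2.57% of 27457 promoters. Only these exact letters were searched, so an element spelled otherwise would be missed. The letters CCAAT, bound by the factor NF-Y that works beside the sterol factors, were found on either strand in 11 of 13 (84.6%), against 37.7% of all. No motif searched contains another. For the 2 sterol genes that differed most between days 7 and 1, the 150 bases before the start follow, with CCAAT or its reverse complement in capitals.
Idi1: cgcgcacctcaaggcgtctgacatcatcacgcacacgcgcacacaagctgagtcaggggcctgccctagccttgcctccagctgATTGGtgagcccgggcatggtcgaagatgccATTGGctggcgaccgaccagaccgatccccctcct
Msmo1: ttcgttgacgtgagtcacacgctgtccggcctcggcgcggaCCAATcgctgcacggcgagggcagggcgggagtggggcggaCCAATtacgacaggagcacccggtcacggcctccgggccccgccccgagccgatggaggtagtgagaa
The stretch of Idi1 lies at chr17:66547525-66547674 on the minus strand and holds 2 such matches, and that of Msmo1 at chr16:29746963-29747112 on the plus strand and also holds 2.

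Genes that neurons switch on with activity were another group above 0. Of 24 measured genes for effectors, the proteins made after the first transcription factors, 21 lay above 0, 13 with 1 sign on all 4 arrays against 1 below, and 13 above 0 had an unadjusted p under 0.05. The median was 0.19, at 0.11 in replicate 1 and 0.26 in replicate 2, and none passed. Vgf stood at 0.98 and 0.75 in replicate 1 and at 1.32 and 1.25 in replicate 2. This is the highest mean of all genes, 1.08 ± 0.30 (SD), and Vgf encodes the precursor of several neuropeptides. Arc had 0.58 and 0.61 on the arrays of replicate 1 and 0.85 and 1.18 on those of replicate 2. Arc, a regulator of glutamate receptor uptake at synapses, had a mean of 0.81 ± 0.30 (SD). Values of Inhba were 0.70 and 0.53 in replicate 1, and 0.49 and 0.74 in replicate 2. Inhba, which encodes the chain of activin A, had a mean of 0.62 ± 0.0046 (SD), with the replicates closer to each other than their arrays. For Scg2 the arrays gave 0.51 and 0.55 in replicate 1 and 0.64 and 0.56 in replicate 2. Scg2, a secretory granule gene, had a mean of 0.56 ± 0.048 (SD).

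The neuronal pentraxin gene Nptx2, whose protein gathers glutamate receptors, had 0.43 and 0.37 in replicate 1 and 0.48 and 0.65 in replicate 2 and a mean of 0.48 ± 0.12 (SD), with spots at 0.73 and 0.24. Rgs4, a brake on G-protein signalling, had 0.48 and 0.34 in replicate 1 and 0.47 and 0.46 in replicate 2 and 0.44 ± 0.036 (SD). Bdnf, the neurotrophin gene, had 0.44 ± 0.29 (SD), and 1 of its 3 spots stood at 0.07 while the others were at 0.63 and 0.64. Not all of the list lay high: Nptx1, Dusp6 and Pim1 were below 0, and Pim1 turned with the dyes, at -0.67 and 0.31 in replicate 1 and -0.32 and 0.26 in replicate 2.

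The transcription factors that come first in that response were less uniform. Of 19 measured, 11 lay above and 8 below 0, 7 kept a sign above 0 on all 4 arrays and the median was 0.04, near 0 in replicate 1 and 0.16 in replicate 2; none passed. The 4 values of Egr1 were 0.55 and 0.31 in replicate 1, then 0.91 and 0.80 in replicate 2. Egr1, a zinc finger factor, had a mean of 0.64 ± 0.30 (SD). Nr4a1 stood at 0.40 and 0.19 in replicate 1 and at 1.19 and 1.11 in replicate 2. Nr4a1, an orphan nuclear receptor, was higher in replicate 2 than in replicate 1 on either dye, and its mean was 0.72 ± 0.61 (SD). Fos had 0.16 ± 0.12 (SD). Egr2, Nr4a3 and Atf3 were below 0 on both arrays of replicate 1 and above 0 on both arrays of replicate 2; Egr2, for example, had -0.42 and -0.37 in replicate 1 and 0.47 and 0.49 in replicate 2. Egr4 was near 0 in replicate 1 and at 1.03 and 1.02 in replicate 2. Replicate 2 alone thus carried several of these genes.

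Neuron markers that are not known as activity genes had a median of 0.04 over 34 genes, 0.13 in replicate 1 and 0.01 in replicate 2, with 25 above and 9 below 0. The replicate with the higher neuron median was the one with the lower activity median; the part of neuron number in the activity values was not tested. Neurofilament genes Nefl and Nefm had 0.27 ± 0.12 (SD) and 0.29 ± 0.06 (SD), and the glutamate receptor gene Gria2 had -0.27 ± 0.11 (SD). Markers of entorhinal and hippocampal cell classes had a median of 0.02 over 25 genes, led by Penk, the enkephalin gene, at 0.29 ± 0.15 (SD). The spots of Penk stood at 0.57 and 0.02.

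The palindrome TGACGTCA, the cAMP response element bound by the activity-driven factor CREB, was searched in the same way. It was found in 4 of 20 effector promoters (20%) and in 1 of 12 promoters of the transcription factors (8.33%), against 1.91% of all promoters. The 4 are Vgf, Scg2, Dusp1 and Plk2, with mean ratios at day 7 of 1.08, 0.56, 0.11 and 0.10, and the 1 is Ier2 at -0.02. The stretches of the 2 secretory granule genes are shown with the element in capitals.
Vgf: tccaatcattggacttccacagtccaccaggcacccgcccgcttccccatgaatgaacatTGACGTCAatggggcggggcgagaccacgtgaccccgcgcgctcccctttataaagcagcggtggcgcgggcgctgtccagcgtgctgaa
Scg2: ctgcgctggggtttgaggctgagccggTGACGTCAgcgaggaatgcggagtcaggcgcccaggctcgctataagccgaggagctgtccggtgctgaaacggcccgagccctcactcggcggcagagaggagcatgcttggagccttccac
Vgf's stretch lies at chr12:25277021-25277170 on the minus strand with the element 90 bases before the start, and that of Scg2 at chr9:88256867-88257016 on the minus strand with it 123 bases before.

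**Figure D2:**
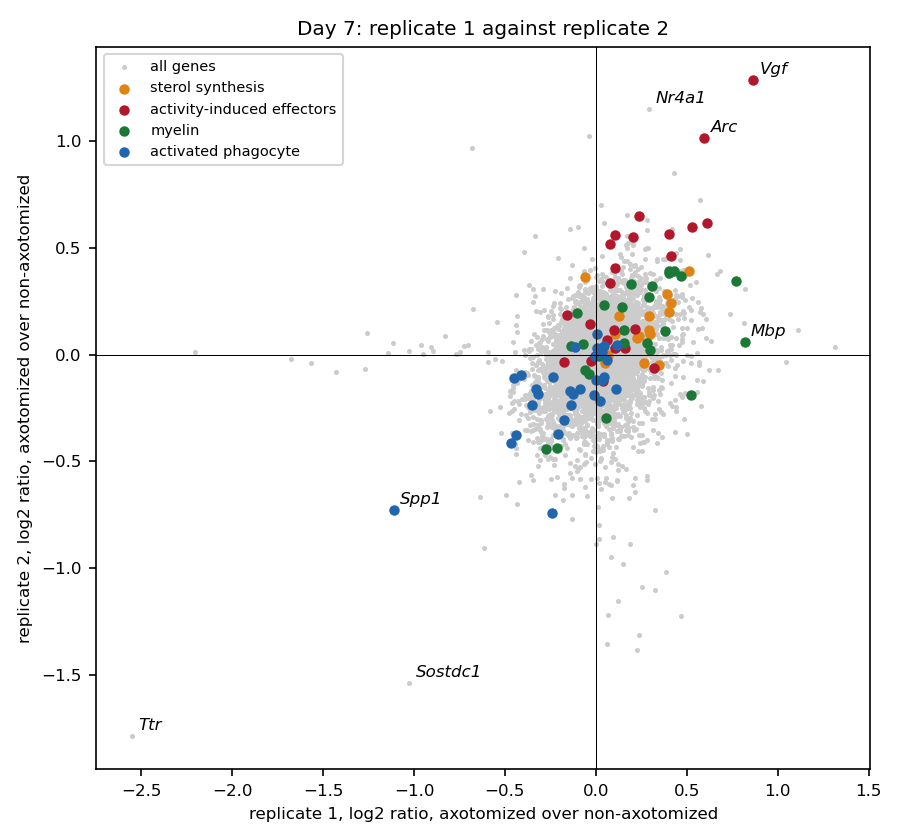
Replicate 1 (horizontal) against replicate 2 (vertical) at day 7, each the mean of its 2 arrays, as log2 ratios of axotomized over non-axotomized RNA. Grey points are all 14871 genes and coloured points the members of 4 lists; Vgf and Arc lie high and Spp1, Sostdc1 and Ttr low in both replicates, while Mbp is high in replicate 1 only.

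Myelin genes were mostly above 0, with exceptions. Of 26 measured, 19 lay above and 7 below 0, 11 kept a sign above 0 on all 4 arrays and 2 below (50% in all, against 17.4% of all genes), and the median was 0.16, at 0.18 in replicate 1 and 0.08 in replicate 2. Mobp had 0.40 and 0.40 on the arrays of replicate 1 and 0.28 and 0.51 on those of replicate 2. Mobp, a gene of compact myelin, had a mean of 0.40 ± 0.0048 (SD). Values of Mog were 0.32 and 0.49 in replicate 1, and 0.28 and 0.48 in replicate 2. Mog, a protein of the outer myelin surface, had a mean of 0.39 ± 0.015 (SD), with its 2 spots at 0.20 and 0.58. For Mag the arrays gave 0.50 and 1.05 in replicate 1 and 0.19 and 0.50 in replicate 2. Mag, an adhesion protein next to the axon and one of the known inhibitors of axon regrowth, had a mean of 0.56 ± 0.30 (SD) and was higher in replicate 1. Opalin, Tspan2 and S1pr5, genes of mature oligodendrocytes, had 0.28 ± 0.015 (SD), 0.41 ± 0.027 (SD) and 0.31 ± 0.0077 (SD), and the receptor gene Lpar1 had 0.42 ± 0.071 (SD).

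Mbp, whose protein compacts the myelin sheath, did not repeat between replicates. The 4 values of Mbp were 0.71 and 0.93 in replicate 1, then -0.05 and 0.16 in replicate 2. Cnp, an enzyme gene of uncompacted myelin, showed the same split, at 0.41 and 0.63 in replicate 1 and -0.23 and -0.14 in replicate 2. Below 0 on all 4 arrays were Tf, the iron carrier gene that oligodendrocytes and choroid plexus cells express, at -0.14 and -0.41 in replicate 1 and -0.25 and -0.63 in replicate 2 and a mean of -0.36 ± 0.12 (SD), and Plekhb1 at -0.32 ± 0.16 (SD). Lineage factors and precursor markers had a median of 0.03 over 12 genes, with 7 above and 5 below 0; Olig1 had 0.24 ± 0.23 (SD), Sox10 0.13 ± 0.17 (SD) and the precursor receptor gene Pdgfra -0.15 ± 0.048 (SD). Of 44 inhibitors of axon growth and their receptors, 26 lay above 0 and the median was 0.05, and Mag was highest.

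Genes of microglia and of activated phagocytes mostly lay below 0. Of 30 activated phagocyte genes 24 were below 0, 14 on all 4 arrays against 2 above, and 12 below 0 had an unadjusted p under 0.05, with a median of -0.14 (-0.12 and -0.16 in replicates 1 and 2). Of 32 identity markers of microglia and macrophages 25 were below 0, 10 on all 4 arrays and none above on all 4, with a median of -0.08 (-0.07 and -0.11). No member of either list passed at day 7. Spp1 and Srgn, described above, had the smallest p of the first list. Lgals1 stood at -0.64 and -0.23 in replicate 1 and at -0.38 and -0.38 in replicate 2. The galectin gene Lgals1 had a mean of -0.41 ± 0.041 (SD), and the calcium-binding protein genes S100a6 and S100a4 had -0.29 ± 0.082 (SD) and -0.24 ± 0.094 (SD). Ccl6, a chemokine gene, had -0.49 ± 0.36 (SD) with replicate 2 lower than replicate 1. Cd63, Ccl4, Ftl1, Axl, Fabp4 and Mmp12 lay above 0, with Cd63 highest at 0.08.

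Trem2 had -0.32 and -0.37 on the arrays of replicate 1 and -0.30 and -0.40 on those of replicate 2. Trem2, the lipid-sensing receptor gene of microglia, was much alike on the 4 arrays and had a mean of -0.35 ± 0.0057 (SD). Values of Cd68 were -0.31 and -0.22 in replicate 1, and -0.54 and -0.44 in replicate 2. Cd68, a protein of phagocyte lysosomes, had a mean of -0.38 ± 0.16 (SD), and its 3 spots stood between -0.40 and -0.32. Cyba, a subunit gene of the phagocyte oxidase, had -0.26 ± 0.078 (SD), the Fc receptor gene Fcgr3a -0.29 ± 0.038 (SD) and the adaptor gene Tyrobp -0.25 ± 0.20 (SD). For Slc2a5 the arrays gave -0.31 and -0.22 in replicate 1 and -0.15 and -0.42 in replicate 2. Slc2a5, the fructose transporter gene that microglia express in brain, was not in the list and had a mean of -0.28 ± 0.02 (SD). Hpgds, another microglial gene outside the list, lay above 0 at day 7 and is described further below.

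Lysosomal and complement genes mostly lay below 0 as well. Of 42 lysosomal genes 30 were below 0, 12 on all 4 arrays, with a median of -0.07, but of -0.02 in replicate 1 and -0.17 in replicate 2. Of 21 complement genes 17 were below 0, 6 on all 4 arrays, with a median of -0.09 (-0.02 and -0.19). The microglia list's median stands beside both; its part in them was not tested. The 4 values of Ctsc were -0.58 and -0.31 in replicate 1, then -0.38 and -0.46 in replicate 2. Ctsc, the protease gene that activates granule enzymes, had a mean of -0.43 ± 0.017 (SD), Acp5, an acid phosphatase gene of macrophages and osteoclasts, -0.36 ± 0.081 (SD), and the cysteine protease gene Ctsb -0.34 ± 0.015 (SD). C5ar1 stood at -0.45 and -0.47 in replicate 1 and at -0.21 and -0.32 in replicate 2. C5ar1, the receptor gene for the complement fragment C5a, had a mean of -0.36 ± 0.14 (SD), and C1qa and C1qb, which encode chains of the starter complex, had -0.43 ± 0.35 (SD) and -0.27 ± 0.12 (SD). Ctsd varied with the dyes, and none of its 3 spots kept 1 sign on all 4 arrays.

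The E-box palindrome TCACGTGA, bound by the lysosomal factor TFEB, was found in 6 of 35 lysosomal promoters (17.1%), against 0.867% of all. Its 6 genes did not share a side at day 7: Ctsd and Ifi30 had -0.33 and -0.22, Mcoln1 and Lamp1 -0.03 and -0.02, and Cln3 and Atp6v0d1 0.04 and 0.06. The stretches of 2 of these with different ratios are shown, with the palindrome in capitals.
Ctsd: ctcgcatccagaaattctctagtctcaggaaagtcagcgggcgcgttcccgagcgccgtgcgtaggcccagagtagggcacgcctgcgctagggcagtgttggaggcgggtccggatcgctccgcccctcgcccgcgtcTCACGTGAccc
Lamp1: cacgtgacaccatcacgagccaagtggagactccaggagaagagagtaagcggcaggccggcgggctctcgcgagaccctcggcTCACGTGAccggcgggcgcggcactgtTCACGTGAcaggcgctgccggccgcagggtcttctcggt
The stretch of Ctsd lies at chr1:206968822-206968971 on the minus strand with 1 match and that of Lamp1 at chr16:83075064-83075213 on the minus strand with 2.

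Interferon-driven genes had a median of -0.05 over 42 genes (-0.02 and -0.07 in replicates 1 and 2), with 29 below 0, and 9 below and 1 above at an unadjusted p under 0.05. Cxcl10 had -0.09 and -0.40 on the arrays of replicate 1 and -0.39 and -0.78 on those of replicate 2. The chemokine gene Cxcl10 had a mean of -0.41 ± 0.24 (SD), with its 2 spots at -0.74 and -0.08. The immunoproteasome gene Psmb9 had -0.36 ± 0.066 (SD). Of 24 antigen presentation genes 7 lay above and 17 below 0, with a median of -0.04 (0.01 in replicate 1 and -0.08 in replicate 2). Class II pathway genes stood on both sides: RT1-Da and Cd74 were at 0.16 ± 0.10 (SD) and 0.12 ± 0.10 (SD), and RT1-DMa and RT1-DMb at -0.31 ± 0.05 (SD) and -0.17 ± 0.056 (SD). The class I genes RT1-A2 and B2m were at -0.33 ± 0.31 (SD) and -0.18 ± 0.23 (SD), and RT1-CE5 at 0.14 ± 0.46 (SD). Of 41 cytokines and chemokines 24 lay below 0, 12 of them on all 4 arrays, and Ccl7, which had -0.16 and 1.12 in replicate 1 and 0.18 and 0.39 in replicate 2, was the highest.

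Genes of the choroid plexus, the epithelium that makes cerebrospinal fluid, held the 2 lowest means of all genes. Values of Ttr were -2.71 and -2.40 in replicate 1, and -1.67 and -1.91 in replicate 2. Its mean was -2.17 ± 0.54 (SD) (4.5-fold lower on the linear scale, adjusted p = 0.353), with the 2 spots of this thyroid hormone carrier gene at -3.09 and -1.25. For Sostdc1 the arrays gave -0.96 and -1.09 in replicate 1 and -1.28 and -1.81 in replicate 2. Sostdc1, a secreted inhibitor expressed in that epithelium, had a mean of -1.28 ± 0.36 (SD) (adjusted p = 0.514). Msx1, a transcription factor gene, had -0.36 ± 0.06 (SD), Igf2 -0.44 ± 0.001 (SD) and Otx2 -0.33 ± 0.09 (SD). The replicates of Igf2 were closer to each other than its arrays in replicate 1, which stood at -0.75 and -0.13. Of 27 measured genes of choroid plexus and ependyma 20 lay below 0, 10 on all 4 arrays, and the median was -0.07 (-0.03 in replicate 1 and -0.11 in replicate 2), so the very low values belong to few genes. At day 3 the mean of Ttr was 1.46, from replicates at 0.73 and 2.18, and that of Sostdc1 also 1.46, from 0.34 and 2.57. Both lay on the other side of 0, neither passed at day 3, and their differences between day 7 and day 3, -3.63 for Ttr and -2.74 for Sostdc1, did not pass either (adjusted p = 0.12 and 0.172). How much of this tissue each culture held was not measured, and its part in these values was not tested.

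Astrocyte and scar genes stood near 0 as groups. Astrocyte markers had 11 of 22 above and 11 below 0, reactive astrocyte and acute phase genes 11 of 24 above, with a median of -0.01, and proteoglycan and scar genes 16 of 30 above, with a median of 0.01. Aqp4, the water channel gene, had 0.24 and 0.07 in replicate 1 and 0.31 and 0.14 in replicate 2, and Slco1c1, a thyroid hormone transporter gene, 0.43 ± 0.21 (SD). Gja1 and Aldoc, the genes of connexin 43 and of a brain aldolase, were at -0.25 ± 0.08 (SD) and -0.27 ± 0.16 (SD). The spots of Gja1 ran from -0.66 to -0.06, and those of Aldoc stood at -0.50 and -0.03. Gfap, the filament of reactive astrocytes, had 0.22 and 0.45 in replicate 1 and -0.12 and 0.15 in replicate 2, higher in replicate 1 than in replicate 2 and not of 1 sign. Lcn2, an acute phase gene, had -0.27 ± 0.12 (SD), below 0 on all 4 arrays.

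Regeneration-associated genes had 19 of 38 above and 19 below 0, with a median of -0.01. Gap43, the growth cone protein gene, was at -0.11 ± 0.016 (SD) with -0.04 and -0.16 in replicate 1 and -0.06 and -0.19 in replicate 2, and Marcks, a substrate of protein kinase C in growing neurites, at -0.34 ± 0.074 (SD). Arg1, the arginase gene, had -0.30 and -0.22 in replicate 1 and -0.30 and -0.34 in replicate 2. The axonal factor gene Klf7 had 0.34 ± 0.25 (SD), and Sprr1a and Atf3 are not among those with 1 sign. Collagen and fibroblast genes (26, median -0.02), vessel genes (28, median 0.01), glycolysis and hypoxia genes (27, median -0.02) and iron genes (25, 12 above and 13 below 0) had medians near that of all genes. In these lists the lowest p belonged to Pfkp, a phosphofructokinase gene, at 0.45 ± 0.012 (SD), to Ocln, the occludin gene, at -0.24 ± 0.011 (SD), to Igf2 and to Tf.

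**Figure D3:**
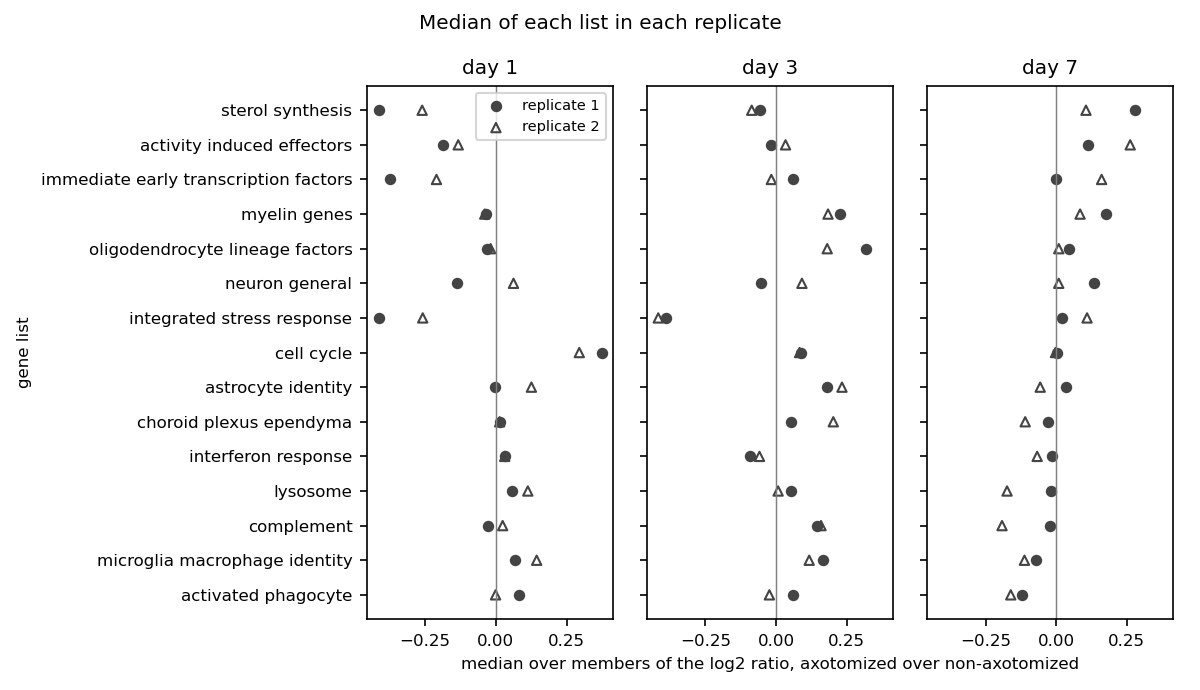
Median log2 ratio of axotomized over non-axotomized RNA over the members of 15 gene lists, in each replicate of days 1, 3 and 7. Filled circles are replicate 1 and open triangles replicate 2; at day 7 sterol synthesis stands at 0.28 and 0.11 and activated phagocyte genes at -0.12 and -0.16, and the cell cycle and integrated stress lists, far from 0 at day 1, stand near it.

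Further genes with a mean over 0.5 in size and 1 sign on all 4 arrays, 14 above and 7 below 0 in all, were chosen after their values were seen. Slc6a17, a vesicular amino acid transporter gene of neurons, had 0.65 ± 0.11 (SD), Apod, a lipid carrier gene of glia, 0.54 ± 0.10 (SD), Septin4 0.52 ± 0.20 (SD) and Hsp90b1, a chaperone of the endoplasmic reticulum, 0.54 ± 0.21 (SD). On the low side stood Plac8 at -0.76 ± 0.20 (SD), Glipr1 at -0.65 ± 0.024 (SD), S100a3 at -0.57 ± 0.11 (SD) and Cyp1a1, a gene of the aryl hydrocarbon receptor's response, at -0.57 ± 0.19 (SD). Prss59 and Pfn3 belong to this set through 1 array each. Prss59 had 0.02 and 2.61 in replicate 1 and 0.02 and 0.05 in replicate 2. Pfn3 had 0.11 and 2.12 in replicate 1 and 0.23 and 0.00 in replicate 2.

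The comparison of day 7 with day 3 asks where the later ratio differs from the earlier one; each day is a ratio against the non-axotomized RNA on its own arrays. By limma's contrast 25 of 14871 genes were higher at day 7 (0.168%) and 28 lower (0.188%), and 51 of the 53 had opposite signs on the 2 days. Genes picked for a large difference tend to have opposite signs, so this count is no test of a reversal. In 43 of the 53 the ratio at day 3 was the larger in size, and 42 had passed at day 3 itself. The contrast shares its day 3 replicates with that test, so the choice of genes favours this overlap. These counts rest on every replicate: 0 genes passed without either day 1 replicate or without day 3 replicate 2, 3 without day 3 replicate 1, 1 without day 7 replicate 1 and 19 without day 7 replicate 2, of which 3 were among the 53. Arrays with the axotomized RNA in Cy5 alone gave 4 and those with it in Cy3 alone 16. Quantile normalization gave 66 with 24 of the 53 among them, and no single spot passed when spots were tested in place of genes. With the replicate number as a block 0 genes passed.

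The integrated stress response slows translation and raises amino acid supply through the factor ATF4. Its list of genes had more members among the 53 than any other list. The lists differ in size and were chosen with earlier results of these data known, so this rank is no test. Of 32 measured, 6 were higher at day 7 than at day 3 and none lower, and the list's median was -0.38 at day 3 and 0.04 at day 7 (0.02 in replicate 1 and 0.11 in replicate 2). At day 7, 20 of the 32 lay above 0, 9 of them on all 4 arrays, and none lay below 0 on all 4. The 4 values of Ddit3 were 0.06 and 0.19 in replicate 1, then 0.21 and 0.49 in replicate 2. At day 3 the mean of Ddit3, the gene of the stress factor CHOP, had been -1.21, and the difference was 1.44 ± 0.12 (SE, adjusted p = 0.0412). Atf4 stood at 0.11 and 0.30 in replicate 1 and at 0.34 and 0.71 in replicate 2. Atf4 differed by 1.09 ± 0.11 (SE, adjusted p = 0.0446). Asns had 0.32 and 0.29 on the arrays of replicate 1 and 0.23 and 0.16 on those of replicate 2. Asns, the asparagine synthetase gene and a target of ATF4, differed by 0.97 ± 0.091 (SE, adjusted p = 0.0429), and Shmt2 and Atf5 by 0.77 ± 0.084 (SE, adjusted p = 0.0447) and 0.74 ± 0.083 (SE, adjusted p = 0.0451). The sixth was Ppp1r15a, which encodes the phosphatase subunit that ends the response, with a difference of 0.60 ± 0.066 (SE, adjusted p = 0.0447). Trib3 split by replicate at day 7, at -0.68 and -0.68 in replicate 1 and 1.04 and 0.90 in replicate 2, and did not pass.

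Genes of translation start were seen among the 25 and were then looked at by symbol, after their values were known. The set of 46 genes whose symbols begin with Eif includes kinases and inhibitors of initiation factors. Of these, 4 were higher at day 7 than at day 3 and none lower, against 0.168% and 0.188% of all genes. The 4 were Eif2s2 and Eif2b3, of the factors that the stress response acts on, Eif3e and Eif5. Their differences were 0.63, 0.74, 0.66 and 0.64. The median of the 46 at day 7 was 0.03. Of 70 ribosomal protein genes Rpl5 alone was higher, by 0.78 ± 0.078 (SE, adjusted p = 0.0429), and its day 7 values varied with the dyes; the median of the 70 was -0.17 on arrays with axotomized RNA in Cy5 and 0.03 on those with it in Cy3, so the family's sign turned with the dyes.

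Other genes higher at day 7 were Scg2, at -0.84 on day 3 and with a difference of 1.40 ± 0.15 (SE, adjusted p = 0.0447), the inflammatory caspase gene Casp4, with 1.11 ± 0.12 (SE, adjusted p = 0.0447), and Ifi27l2b, with 0.85 ± 0.075 (SE, adjusted p = 0.0412). Casp4 and Ifi27l2b were near 0 at day 7, at 0.11 ± 0.19 (SD) and -0.07 ± 0.13 (SD), so their difference was mostly the ratio at day 3. Sqle and Idi1 of sterol synthesis also passed, with 0.64 ± 0.073 (SE, adjusted p = 0.0479) and 0.64 ± 0.056 (SE, adjusted p = 0.0412).

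Of the 28 genes that passed as lower at day 7 than at day 3, Spp1 had the largest difference; it was at 0.55 on day 3, with a difference of -1.47 ± 0.16 (SE, adjusted p = 0.0447). Values of Tmem255b were -0.54 and -0.15 in replicate 1, and -0.38 and -0.20 in replicate 2. Tmem255b differed by -1.30 ± 0.077 (SE, adjusted p = 0.0412). Synm, an intermediate filament gene, differed by -1.11 ± 0.099 (SE, adjusted p = 0.0412), and A2m, a protease inhibitor gene, by -1.10 ± 0.11 (SE, adjusted p = 0.0429). The connexin gene Gjb2 differed by -0.90 ± 0.072 (SE, adjusted p = 0.0412), and Glul, the glutamine synthetase gene, by -0.85 ± 0.058 (SE, adjusted p = 0.0412). At day 7 these 4 stood between -0.24 and -0.09, and the spots of Glul disagreed, at -0.28, -0.17 and 0.17. Msx1 differed by -0.96 ± 0.076 (SE, adjusted p = 0.0412), C5ar1 by -0.87 ± 0.10 (SE, adjusted p = 0.0497), Plekhb1 by -1.0 ± 0.11 (SE, adjusted p = 0.0454) and Axin1, a scaffold of Wnt signalling, by -0.92 ± 0.071 (SE, adjusted p = 0.0412). Srgn also passed, with -0.67 ± 0.061 (SE, adjusted p = 0.0412).

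Day 7 set against day 1 gave 9 genes higher (0.0605%) and 9 lower (0.0605%). Of the 18, 16 had opposite signs on the 2 days, which a choice by difference again favours. In 17 of the 18 the ratio at day 1 was the larger in size. Without either day 3 replicate 0 passed, without day 1 replicate 1 or 2 there were 1 and 2, and without day 7 replicate 1 there were 8; arrays with the axotomized RNA in Cy5 alone gave 64, those with it in Cy3 alone 2, quantile normalization 92, and single spots in place of genes 4. Of the 16 sterol synthesis genes 3 were higher at day 7 and none lower: Idi1 by 1.23 ± 0.056 (SE, adjusted p = 0.0141), Msmo1 by 1.17 ± 0.077 (SE, adjusted p = 0.0391) and Sqle by 0.94 ± 0.073 (SE, adjusted p = 0.0409). At day 1 the list's median had been -0.34. The difference of Idi1 lost its call without any 1 replicate of days 1 and 3, with adjusted p of 0.0700 to 0.0778, and kept it without either replicate of day 7.

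Of the 9 genes that passed as higher, Ddit3 and Atf4 had the largest differences, with 1.51 ± 0.12 (SE, adjusted p = 0.0409) and 1.40 ± 0.11 (SE, adjusted p = 0.0409), and Eif2s2 had 0.57 ± 0.046 (SE, adjusted p = 0.0409); these comparisons share the day 7 arrays with those above. Gfra2 differed by 0.83 ± 0.052 (SE, adjusted p = 0.0391), Fermt2, an integrin activator gene, by 0.63 ± 0.059 (SE, adjusted p = 0.0486) and Ccn1, a matrix protein gene, by 0.61 ± 0.055 (SE, adjusted p = 0.0486). Among lower genes 4 belong to the 43 of the cell cycle list: Hmgb2, a chromatin protein gene, by -1.0 ± 0.085 (SE, adjusted p = 0.0427), Ckap2, a spindle protein gene, by -0.76 ± 0.06 (SE, adjusted p = 0.0409), and Top2a and Nuf2, genes of DNA untangling and of the kinetochore, by -0.57 ± 0.054 (SE, adjusted p = 0.0486) and -0.55 ± 0.051 (SE, adjusted p = 0.0486). Kifc1, a spindle motor gene, differed by -0.46 ± 0.044 (SE, adjusted p = 0.0486). The list had a median of 0.36 at day 1 and of -0.00 at day 7, where 20 genes lay above and 23 below 0 and Birc5, the survivin gene, was lowest at -0.40 and -0.38 in replicate 1 and -0.36 and -0.34 in replicate 2. Slc2a5, Nat8f5, Ctsd and Cracr2b, with -0.70 ± 0.058 (SE, adjusted p = 0.0409), -0.63 ± 0.052 (SE, adjusted p = 0.0409), -0.62 ± 0.059 (SE, adjusted p = 0.0486) and -0.61 ± 0.055 (SE, adjusted p = 0.0486), lay below 0 at day 7 and above it at day 1.

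**Figure D4:**
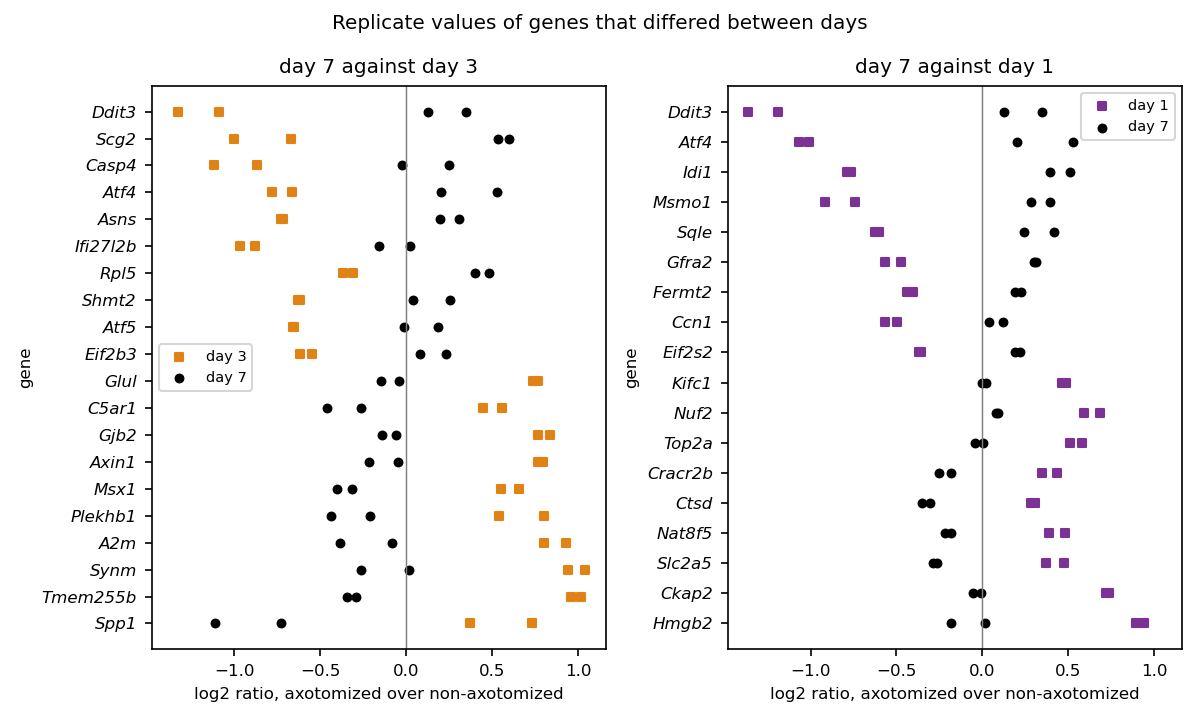
Replicate means of the genes named for a difference between day 7 (black circles) and day 3 (orange squares, left) or day 1 (purple squares, right), as log2 ratios of axotomized over non-axotomized RNA on the horizontal axis. The day 7 points lie nearer 0 than the squares for most genes; Spp1, at -0.92 on day 7 and 0.55 on day 3, is an exception.

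Genes that had passed as lower at day 1 lay above 0 at day 7 more often than all genes did. For genes that had passed as higher at day 1, or in either direction at day 3, the gap was smaller. None of these shares was tested against that of all genes. Of 33 genes lower at day 1, 27 were above 0 at day 7 (81.8%) with a median of 0.11, and of 55 higher at day 1, 31 were below 0 (56.4%) with a median near 0. Of 88 genes higher at day 3, 57 were below 0 at day 7 (64.8%, median -0.06), and of 65 lower at day 3, 40 were above 0 (61.5%, median 0.04). Over all genes 7761 lay above (52.2%) and 7101 below 0 (47.8%). Across genes, r between the day 7 and day 1 means was -0.20 and between day 7 and day 3 -0.11, against 0.30 between days 1 and 3; no array is shared between days, but the genes are not independent points. Some genes kept their side: of the oligodendrocyte genes, Tspan2 was at 0.56 on day 3 and 0.41 ± 0.027 (SD) at day 7, Gpr37 at 0.67 and 0.26 ± 0.097 (SD) and the choline transporter gene Slc44a1 at 0.56 and 0.25 ± 0.19 (SD). Hpgds, the prostaglandin D synthase gene of microglia, was at 0.82 on day 1 and 0.27 ± 0.18 (SD) at day 7, and Lcn2 at -0.68 and -0.27 ± 0.12 (SD). These 5 were picked after their values were seen.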

How the data were processed

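The table holds deposited log2 ratios, 1 column for each of 12 two-colour arrays, made with limma per the submitters' processing notes; its version, background correction and normalization are not given in the sources used here. Column medians at day 7 ran from -0.022 to 0.023. No intensities were used here, so dim or saturated spots could not be left out and depth is unknown; the number of arrays limits the precision. Of 44290 spots, 23535 had 1 gene symbol in GEO's platform annotation, 48 had several and 20707 none, which left 14871 genes, 5658 of them with over 1 spot. Spots of a gene were averaged, then the 2 dye-swapped arrays of a replicate. Spots are printed for only some genes, and those of others, for example Fos, Cyba, Ocln and Gap43, also differed. Each SD of a day 7 mean is between the 2 replicates and leaves out the spread between the arrays of a replicate.

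R 4.3.3 and limma 3.58.1 served to fit the 6 replicate values, each day having its own coefficient (3 residual degrees of freedom). The variance of a gene was shared by the 3 days and moderated across genes (2.72 prior degrees of freedom). Day 7 was tested against 0, day 3 and day 1. A gene passed at a Benjamini-Hochberg adjusted p under 0.05 over all genes. Named genes are the first 15 by p in each direction among genes whose 4 arrays share a sign, up to 10 per direction with the largest differences that passed, up to 6 of smallest p in each of 27 gene lists (806 genes, 740 measured), and others as said in the text. The members and lists were chosen with earlier results of these data known. The labels do not say whether the same replicate number on different days marks samples made together, so the days were fitted without pairing. The r of replicate differences was 0.26 between days 1 and 3, -0.07 between days 1 and 7 and 0.01 between days 3 and 7. Promoters came from RefSeq, assembly GRCr8. The fit was tested on simulated data. Alternatives were the dye orientation, median of spots, quantile normalization, a filter on dye effects, arrays or replicates as blocks, a dye term, single spots, day 7 alone and each replicate left out.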

Additional observations from a re-analysis of the deposited data

Results flagged for a closer look

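The ratio at day 7 differed from that at day 3 in 53 genes and from that at day 1 in 18, each by limma's contrast of the days. These are the differences themselves, in log2 units with n = 2 a day; their errors and adjusted p stand in the text above.

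Higher at day 7 than at day 3 were the stress response genes Ddit3 by 1.44, Atf4 by 1.09, Asns by 0.97, Shmt2 by 0.77 and Atf5 by 0.74, the granule gene Scg2 by 1.40, Casp4 by 1.11, Ifi27l2b by 0.85, Rpl5 by 0.78 and Eif2b3 by 0.74. Lower were Spp1 (-1.47), Tmem255b (-1.30), Synm (-1.11), A2m (-1.10), Plekhb1 (-1.0), Msx1 (-0.96), Axin1 (-0.92), Gjb2 (-0.90), C5ar1 (-0.87) and Glul (-0.85).

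Higher at day 7 than at day 1 were Ddit3 by 1.51, Atf4 by 1.40 and Eif2s2 by 0.57, the sterol synthesis genes Idi1 by 1.23, Msmo1 by 1.17 and Sqle by 0.94, and Gfra2 by 0.83, Fermt2 by 0.63 and Ccn1 by 0.61. Lower were the cell cycle genes Hmgb2 (-1.0), Ckap2 (-0.76), Top2a (-0.57) and Nuf2 (-0.55), with Kifc1 (-0.46), and Slc2a5 (-0.70), Nat8f5 (-0.63), Ctsd (-0.62) and Cracr2b (-0.61).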

How the results depend on the processing

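The 30 genes named for day 7 were chosen for 1 sign on all 4 arrays, which fixes their sign in most settings. Of the 176 genes named for day 7 in all, 7 had the other sign with Cy5 alone, 9 with Cy3 alone, 1 without day 7 replicate 1 and 5 without day 7 replicate 2. At day 7 the count of 0 became 15 with quantile normalization, which also stretched the ratios, 288 with the 12 arrays in a random block, 194 with a dye term added, and 0 to 18 when 1 replicate was left out; it was 0 in the other settings, single spots included. Against day 3 the count of 53 became 4 and 16 with 1 dye orientation (Cy5, Cy3), 917 and 832 in the random block without and with a dye term, 66 with quantile normalization (24 of them among the 53, and 10 of the 20 named genes without their call), 0 with single spots, and 0 to 19 when 1 replicate was left out. Against day 1 the count of 18 became 64 and 2 by dye orientation, 92 with quantile normalization, 868 and 726 in the random block, 4 with single spots, and 0 to 22 when 1 replicate was left out. The random blocks test arrays and so have more degrees of freedom, single spots raise the number of tests, and a left-out replicate leaves a day with 1 sample that is assumed to vary like the others; other causes were not tested. With the replicate number as a replicate block the count was 0 at day 7 and 0 against day 3. Against day 1 it was 11, of which 5 were among the 18. The labels do not say whether the same number marks samples made together. The median of the activated phagocyte list went from -0.139 to -0.094 with Cy5 alone and -0.211 with quantile normalization, and that of microglia from -0.084 to -0.124 with the latter. With 1 day 7 replicate left out, the median ranged from 0 to 0.161 for the immediate early factors, 0.085 to 0.176 for myelin genes, 0.106 to 0.279 for sterol synthesis, 0.113 to 0.262 for activity effectors, -0.174 to -0.019 for lysosomal genes and -0.109 to -0.029 for choroid plexus genes.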
